A study of Mus musculus with 10 samples.

Results

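Mouse genes named Zfp with a number carry the name zinc finger protein, and 180 of the 19235 protein-coding genes analysed here belong to them. They were chosen by symbol: Zfp followed by a whole number from 1 to 600 with no trailing letter, on the GRCm38 gene table with chromosomes 8 and 11 not analysed here. A gene was counted as having a peak when a peak overlapped, by at least 1 bp, the 1 kb on either side of either gene end. A total of 86 genes had another of the 180 genes within 100 kb and are called clustered, and the other 94 are called single. At the edge of the distance rule, Zfp263 lay 96399 bp from its neighbour and counted as clustered, while Zfp563 and Zfp472 lay 110155 bp apart and counted as single. At the edge of the number rule, Zfp599 and Zfp600 were members with a peak in 2 addback libraries each. Zfp605 and Zfp606 fell outside it, with a peak in 0 and 4 addback libraries.

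SET is a histone-binding protein with the isoforms SETα and SETβ, and the peaks mark where an HA-tagged copy of either was found on the chromatin of mouse embryonic stem cells. All cells were of the KH2 line, which takes up 1 transgene under doxycycline control, and received 1 µg/ml doxycycline for 24 h. In the SETa addback and SETb addback groups, here SETα and SETβ addback, the cells were SET KO and the tagged isoform was returned; in the SETa overexpression and SETb overexpression groups the isoform was added to cells that kept their own SET. Each group had 2 replicates, and each was a separate cell line, so effects of line and of group cannot be told apart. Cells were grown on feeder fibroblasts, which were depleted before harvest. All were crosslinked with 2 mM DSG, a protein-to-protein crosslinker, for 45 min before formaldehyde, and an HA antibody was used for the precipitation. SET KO cells that received no doxycycline (2 samples) were not analysed here, so there is no background from untagged cells beside any value. Peak lists hold no expression values, so the cell type was not checked against markers. No label says that replicates came from separate cultures, so p-values measure only the spread between these libraries.

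Most Zfp genes encode C2H2 zinc finger proteins, in which tandem fingers read DNA sequence. Many of them also carry a KRAB domain, which recruits TRIM28 (KAP1) and the histone methyltransferase SETDB1 and thereby silences retrotransposons in embryonic stem cells. KRAB zinc finger genes spread by tandem duplication and often sit side by side on a chromosome. The symbol is a name and not a class: Zfp36, for example, encodes an mRNA-binding protein with CCCH fingers that promotes mRNA decay.

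Promoters of 5 members are printed as examples, some under a peak in all 4 addback libraries and some without any peak in a tandem cluster. They do not show the whole range, as the CpG counts of the 145 member promoters ran from 1 to 49. Other members went the other way: Zfp27, with 1 CpG, had a peak in 3 addback libraries. Zfp94, with 25 CpG and in the same cluster as the printed promoters without a peak, had none. Each is the RefSeq sequence of GRCm38.p6 from 250 bases before to 50 bases after the gene's start, 300 bases in all, written 5′ to 3′ on the gene's strand. Capitals mark CpG dinucleotides. The first is Zfp560 on chromosome 9 (chr9:20385109-20385408, minus strand), with 23 CpG, followed by Zfp408 on chromosome 2 (chr2:91649742-91650041, minus strand) with 16 and Zfp433 on chromosome 10 (chr10:81704575-81704874, plus strand) with 10. These 3 genes were in both addback IDR lists. Zfp111 (chr7:24208100-24208399, minus strand) with 5 CpG and Zfp235 (chr7:24132122-24132421, plus strand) with 1 belong to a cluster of 10 genes on chromosome 7 and had no peak in any addback library.
Zfp560: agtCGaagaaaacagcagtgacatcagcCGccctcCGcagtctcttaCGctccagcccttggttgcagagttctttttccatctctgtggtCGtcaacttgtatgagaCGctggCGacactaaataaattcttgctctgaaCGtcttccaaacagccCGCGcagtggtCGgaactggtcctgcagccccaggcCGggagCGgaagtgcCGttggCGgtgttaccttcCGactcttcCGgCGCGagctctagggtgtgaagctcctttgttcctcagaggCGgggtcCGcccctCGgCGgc
Zfp408: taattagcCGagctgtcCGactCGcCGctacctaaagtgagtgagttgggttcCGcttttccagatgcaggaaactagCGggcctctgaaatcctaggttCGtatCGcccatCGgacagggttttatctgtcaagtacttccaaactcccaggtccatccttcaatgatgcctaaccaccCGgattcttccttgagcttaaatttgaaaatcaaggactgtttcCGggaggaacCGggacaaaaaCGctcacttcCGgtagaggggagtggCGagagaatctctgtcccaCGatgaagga
Zfp433: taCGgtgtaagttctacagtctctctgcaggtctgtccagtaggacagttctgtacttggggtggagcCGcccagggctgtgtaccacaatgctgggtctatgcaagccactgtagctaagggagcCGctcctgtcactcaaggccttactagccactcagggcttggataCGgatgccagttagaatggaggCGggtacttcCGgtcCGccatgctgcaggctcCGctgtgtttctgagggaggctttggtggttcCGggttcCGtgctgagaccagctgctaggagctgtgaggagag
Zfp111: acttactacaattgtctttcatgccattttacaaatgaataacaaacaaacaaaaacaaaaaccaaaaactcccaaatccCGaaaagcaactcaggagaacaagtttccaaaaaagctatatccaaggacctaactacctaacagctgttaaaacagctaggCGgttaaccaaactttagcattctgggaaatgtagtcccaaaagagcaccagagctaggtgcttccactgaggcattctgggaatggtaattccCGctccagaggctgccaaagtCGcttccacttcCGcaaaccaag
Zfp235: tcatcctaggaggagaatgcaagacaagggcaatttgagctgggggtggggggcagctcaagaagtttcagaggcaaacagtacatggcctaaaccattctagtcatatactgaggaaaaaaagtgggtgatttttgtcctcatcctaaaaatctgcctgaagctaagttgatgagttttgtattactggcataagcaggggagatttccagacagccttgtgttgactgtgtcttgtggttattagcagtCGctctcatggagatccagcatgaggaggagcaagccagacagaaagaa

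With SETα returned to SET KO cells, 84 of 180 Zfp genes (46.7%, Wilson 95% interval 39.5 to 54.0%) had a peak in replicate 1 and 74 (41.1%, 34.2 to 48.4%) in replicate 2. Over all protein-coding genes the shares were 34.3% and 31.8%. With SETβ returned, 20 Zfp genes (11.1%, 7.31 to 16.5%) had a peak in replicate 1 and 45 (25%, 19.2 to 31.8%) in replicate 2, beside 8.41% and 18.4% of all protein-coding genes. The Zfp share was thus above the share of all genes in each of the 4 addback libraries, by a ratio of 1.36, 1.29, 1.32 and 1.36. In cells that kept SET few Zfp genes had a peak. SETα overexpression gave 2 (1.11%) and 5 (2.78%) Zfp genes, beside 0.983% and 1.90% of all genes. SETβ overexpression gave 0 and 7 (3.89%), beside 0.338% and 1.85% of all genes. A count of 0 of 180 genes allows a share of up to 1.67%. Intervals and limits cover counting error only, and the depth of the libraries is unknown here because read totals were not used.

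**Figure D1:**
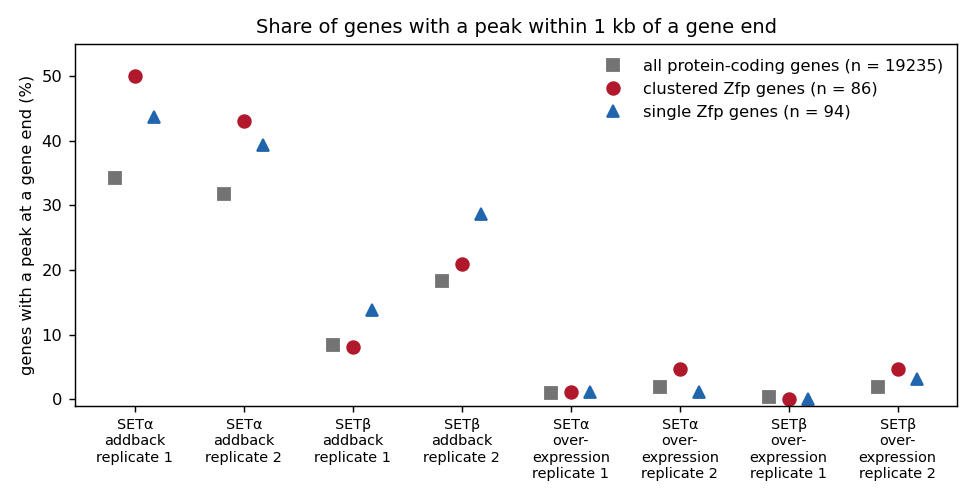
Percent of genes with a peak within 1 kb of a gene end (vertical axis) in each of the 8 libraries (horizontal axis), for all protein-coding genes (squares, n = 19235), clustered Zfp genes (circles, n = 86) and single Zfp genes (triangles, n = 94). Clustered genes stand above single genes in both SETα addback libraries (50.0% and 43.0% against 43.6% and 39.4%) and below them in both SETβ addback libraries.

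The Zfp shares of the addback libraries followed the length of the peak lists. Lists held 22176 and 15701 peaks for SETα addback, 2518 and 9768 for SETβ addback, 4807 and 7675 for SETα overexpression and 1343 and 2869 for SETβ overexpression. In SET KO cells the mean Zfp share was 43.9 ± 3.93% with SETα and 18.1 ± 9.82% with SETβ (SD, n = 2 each). In cells that kept SET it was 1.94 ± 1.18% with SETα and 1.94 ± 2.75% with SETβ (SD, n = 2 each). Addback exceeded overexpression by 29.0 percentage points averaged over the isoforms, with a spread between replicates of 5.50 points (exact two-sided permutation test over the 8 libraries, p = 0.0556, the smallest possible). All 4 addback libraries lay above all 4 overexpression libraries, also when each library was cut to its 1343 strongest peaks, the number in the smallest, where the difference was 8.89 points. SETα exceeded SETβ by 25.8 points in SET KO cells and by 0 points in cells that kept SET, a mean of 12.9 points (exact permutation test, p = 0.222). The isoform difference was 0.28 points (exact permutation test, p = 0.889) at that equal number of peaks.

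The Zfp share was also set against that of all genes by subtracting the latter within each library, which does not remove the length of the lists from the comparison. In SET KO cells this excess was 12.4 and 9.28 points for SETα and 2.70 and 6.63 points for SETβ. In cells that kept SET it was 0.13 and 0.88 points for SETα and −0.34 and 2.04 points for SETβ. Addback libraries exceeded overexpression libraries by 7.08 points, beside a spread between replicates of 1.98 points (p = 0.0556 by the exact permutation test, again the smallest it allows). With the 1343 strongest peaks of each library this difference was 4.25 points, and all addback libraries still lay above all overexpression libraries. Taken as a ratio, the Zfp share was 1.36, 1.29, 1.32 and 1.36 times the share of all genes in SETα addback replicates 1 and 2 and SETβ addback replicates 1 and 2. The overexpression ratios in the same order were 1.13, 1.46, 0 and 2.11, from 2, 5, 0 and 7 Zfp genes. With full lists the addback libraries thus did not lie above the overexpression libraries on this scale. Cut to 1343 peaks, the addback Zfp shares were 7.78%, 11.7%, 9.44% and 8.89%, with an excess of 3.1, 5.9, 4.1 and 3.9 points. The overexpression shares were then 0.56%, 0.56%, 0% and 1.11%, with an excess of 0.02, −0.09, −0.34 and 0.43 points. As a difference in points with full lists, SETα exceeded SETβ by 6.17 points in SET KO cells and by −0.35 points in cells that kept SET (exact permutation test on the mean of 2.91, p = 0.222). At equal numbers of peaks that mean was 0.22 points. With a window of 250 bp it was 0.63 points (exact permutation test, p = 0.833), and the SET KO values overlapped between isoforms, at 7.83 and 6.74 points for SETα and 3.74 and 8.06 points for SETβ.

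Counted over the 4 addback libraries, 61 Zfp genes (33.9%) had no peak, 58 (32.2%) a peak in 1 library, 33 (18.3%) in 2, 13 (7.22%) in 3 and 15 (8.33%) in all 4. Among all protein-coding genes the shares were 52.5%, 19.6%, 15.5%, 7.23% and 5.15%. A peak in at least 1 addback library was thus found at 66.1% of Zfp genes and 47.5% of all genes. The surplus lay mostly in genes with a peak in 1 library. Of the 58 such Zfp genes, 32 had it in SETα addback replicate 1 (17.8% of the 180, beside 9.26% of all genes), 21 in SETα addback replicate 2 (11.7%, beside 7.17%), 0 in SETβ addback replicate 1 (beside 0.286% of all genes) and 5 in SETβ addback replicate 2 (2.78%, beside 2.87%). Above all genes stood the 2 SETα shares, and not those of SETβ. A peak in both SETα addback libraries was found at 44 Zfp genes (24.4%), beside 22.0% of all genes. Of the 114 Zfp genes with a peak in either SETα library, 38.6% had it in both, and of all such genes 49.8%. For SETβ the order was the other way: 18 of 47 Zfp genes (38.3%) had a peak in both libraries, against 28.0% of all genes. As a share of all Zfp genes these 18 are 10.0%, beside 5.85% of all genes. No Zfp gene had a peak in both SETβ addback libraries and in no SETα addback library, and 0.187% of all genes did. In all, 60 Zfp genes (33.3%) had no peak in any of the 8 libraries, beside 51.7% of all genes.

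The peaks at Zfp genes ranged from among the strongest in a list to close to its threshold. In each list the deposited fold enrichment and −log10 p are the authors' values for the peak. The best peak of a Zfp gene had a median SETα addback fold of 3.24 and 3.90 and a median SETβ addback fold of 4.72 and 3.21. The highest fold lay between 13.5 and 15.9 in each of these 4 libraries. Its median rank by −log10 p, as a share of the list, was 33.6% and 31.8% with SETα, beside 33.6% and 31.9% for all genes with a peak. With SETβ it was 19.8% and 24.0%, beside 39.6% and 34.7%. These medians come from lists of very different length and were not tested. The best peak had a q of 0.05 or lower at 54 of 84 and 57 of 74 Zfp genes for SETα addback replicates 1 and 2, and at 17 of 20 and 23 of 45 for those of SETβ. In percent these are 64.3 and 77.0 for SETα and 85.0 and 51.1 for SETβ, beside 64.1, 75.9, 57.7 and 40.2 of all genes with a peak. The SETα shares were thus near those of all genes, and the SETβ shares above them, with 20 and 45 Zfp genes behind them and no test. In the overexpression libraries the best peak had such a q at 1 of the 5 Zfp genes with a peak in SETα replicate 2, 0 of 2 in SETα replicate 1 and 0 of 7 in SETβ replicate 2, and SETβ replicate 1 held no Zfp gene. Of all genes with a peak, 36.7%, 19%, 5.63% and 6.15% had one in these libraries in the same order, and counts this small do not set the Zfp genes apart.

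Peaks lay mostly at gene starts, at Zfp genes and among all genes. The start was known for 145 members matched to RefSeq promoters; the other 35 are given without a strand. Among the 97 of them with an addback peak, the nearest summit of a library's best peak lay a median of 176 bp from the start, within 250 bp at 58 genes (59.8%) and within 1 kb at 81 (83.5%). For the 7407 such genes among all protein-coding genes the median was 217 bp, with 55.2% within 250 bp and 86.9% within 1 kb, so the Zfp genes stood near the whole. The counts and shares by gene end that follow take as the start the outer end of the gene on the side where its strand begins. In SETα addback replicate 1, 56 members had peaks at the start only, 8 at the far end only and 3 at both ends. In SETβ addback replicate 2 the counts were 33, 3 and 0. A peak at the far end only was found at 5.52% and 2.07% of Zfp genes with SETα, beside 2.43% and 2.08% of all genes, and at 0.690% and 2.07% with SETβ, beside 0.419% and 1.45%. Only SETα replicate 1, with 8 genes, lay far above all genes, and replicate 2 did not. In the SETα libraries a peak stood at the start of 40.7% and 39.3% of Zfp genes, beside 31.9% and 30.1% of all genes with a known start. In the SETβ libraries it did at 11.7% and 22.8%, beside 8.07% and 17%. With the 1 kb around any RefSeq start counted instead, the Zfp shares were 47.59% and 43.45% with SETα and 13.1% and 28.97% with SETβ. These lay 12.8, 10.7, 4.14 and 10.1 points above all genes with a known start. Gene ends can lie close together: the best peak also reached the end of another protein-coding gene at 16 of 84 (19%) and 17 of 74 (23%) Zfp genes with SETα and at 6 of 20 (30%) and 9 of 45 (20%) with SETβ. Among all genes with a peak these shares were 27.1% and 28.6% with SETα and 32% and 29.3% with SETβ, each above the Zfp share.

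The deposited lists of peaks that both replicates ranked alike, by irreproducible discovery rate (IDR), held 12 Zfp genes for SETα addback (6.67%, 3.85 to 11.3%) and 9 for SETβ addback (5.00%, 2.65 to 9.23%). Of all protein-coding genes 2.78% and 2.62% had a peak in these lists of 530 and 485 peaks. Neither overexpression list held a Zfp gene, and 0.0676% and 0.026% of all genes had a peak there. Each list combines both replicates and so has no replicate error of its own. In the addback lists 13 Zfp genes appeared (7.22%, beside 3.22% of all genes), and 8 (4.44%, beside 2.18%) were in both lists: Zfp579, Zfp11, Zfp384, Zfp560, Zfp114, Zfp408, Zfp433 and Zfp580. The median rank of the Zfp genes was 53.2% of the SETα list and 51.8% of the SETβ list, below the middle rank of all genes in them (42.4% and 44.1%).

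Zfp579, a gene of a 3-gene cluster on chromosome 7, ranked highest on average over both IDR lists, at 16.8% of a list. Its best peak had a fold of 11.7 and 13.3 with SETα and 15.9 and 13.6 with SETβ addback, with summits 39 to 70 bp from its start. It was the peak of rank 60 of 2518 and 63 of 9768 with SETβ, and of rank 138 and 151 with SETα. Zfp11, a single gene on chromosome 5, had folds of 15.4 and 13.5 with SETα and 12.0 and 9.48 with SETβ, and in SETα addback replicate 1 its peak was the 42nd of 22176. All 4 summits lay within 52 bp of the start of Zfp11. The isoforms overlapped in fold at neither gene, and the order was opposite: SETβ was higher at Zfp579 and SETα at Zfp11. These are single peaks among many, folds of different libraries are relative to different backgrounds, and the difference was not tested.

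Zfp384 on chromosome 6, which encodes a C2H2 factor that binds A-rich DNA, had SETα addback folds of 8.67 and 11.8 and SETβ addback folds of 6.96 and 7.02. Its peaks were broad, for example 125008421 to 125009865 on chromosome 6 in SETα addback replicate 1, across the start. It was also 1 of 2 members with a peak in both SETα overexpression libraries. There 3 peaks of replicate 1 and 6 of replicate 2 reached the windows at its ends, with peaks at both the start and the far end in each replicate. The best of them had folds of 3.08, at the start, and 3.17, at the far end, below the folds of the best addback peaks.

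Zfp560 on chromosome 9, the CpG-rich promoter printed above, had SETα addback folds of 8.18 and 8.63 and SETβ addback folds of 11.4 and 7.76, and its summits lay 7 to 75 bp from the start. Zfp433 on chromosome 10 had 6.80 and 12.0 with SETα and 8.65 and 6.90 with SETβ, also within 85 bp of the start. Values of the isoforms overlapped at both genes. Zfp408 had folds of 7.47 and 10.1 with SETα and 7.49 and 6.36 with SETβ, again overlapping. Its peaks also reached the end of Arhgap1, so the peak cannot be given to 1 of the genes. Zfp114 had 8.47 and 10.7 with SETα and 5.64 and 6.31 with SETβ, and its groups did not overlap. Zfp580 had 5.23 and 5.53 with SETα and 3.90 and 4.37 with SETβ. Its summits lay 2249 to 2378 bp from its own start, at its far end next to Ccdc106.

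Zfp473, Zfp113, Zfp335 and Zfp84 were in the SETα IDR list only, and Zfp142 in the SETβ IDR list only. Presence in 1 list did not mean absence of peaks with the other isoform. Zfp473, whose human counterpart acts in histone mRNA processing, had SETα addback folds of 5.98 and 9.10 and SETβ addback folds of 6.34 and 6.30, at an interval shared with Vrk3. Zfp113 had folds of 5.98 and 5.53 with SETα and 5.03 and 6.02 with SETβ. Both were thus listed by both isoforms at overlapping values. Zfp335, part of a histone H3K4 methyltransferase complex needed in neural progenitors, had 4.73 and 5.53 with SETα and 4.24 and 2.67 with SETβ. Zfp142 had folds of 5.73 and 5.20 with SETα and 6.33 and 4.36 with SETβ, at an interval shared with Bcs1l. Zfp84 was the exception, with folds of 4.23 and 5.20 with SETα and no peak in either SETβ addback library. It ranked at 99.6% of the SETα IDR list, close to that list's threshold.

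**Figure D2:**
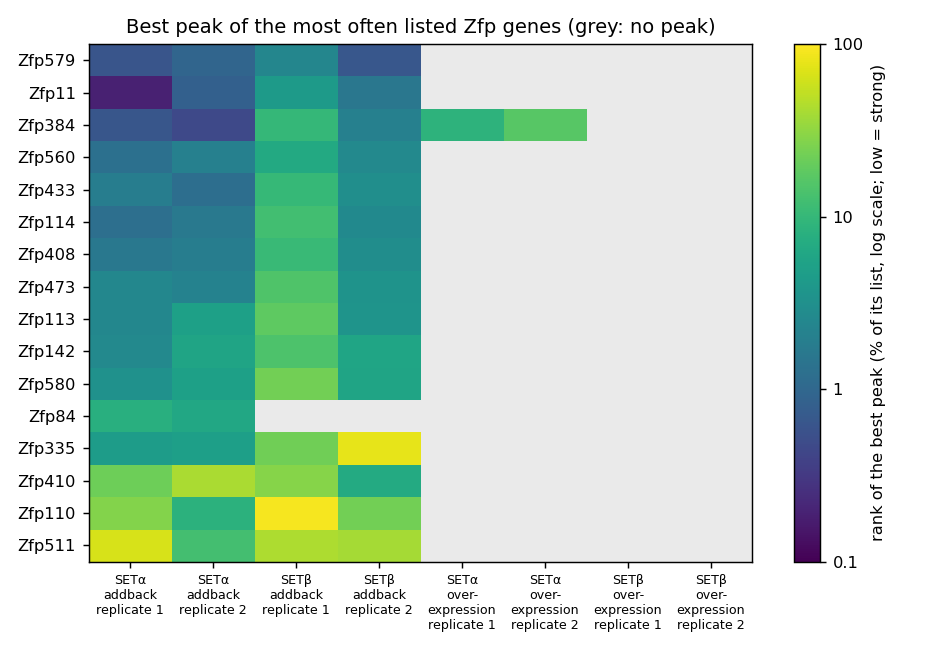
Rank of the best peak at each of 16 Zfp genes (rows) in each of the 8 libraries (columns), as percent of that library's list on a log colour scale where low is strong and grey is no peak. The genes are the 15 with a peak in all 4 addback libraries and Zfp84, and all but Zfp384 are grey in all 4 overexpression libraries.

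In all 4 addback libraries, 15 Zfp genes had a peak (8.33%, beside 5.15% of all genes), and 12 of them were in an addback IDR list. The IDR lists combine these same libraries, so this overlap is not separate evidence, and it was not counted over all genes. The other 3 of the 15 were Zfp410, Zfp110 and Zfp511, of which Zfp511 was singled out after its values were seen. Zfp410 encodes an activator whose known target is Chd4, a gene of the NuRD corepressor. Its folds were 3.49 and 3.58 with SETα and 3.89 and 4.12 with SETβ, and in 3 of the 4 libraries the peak also reached Ptgr2. Zfp110, a partner of the p75 neurotrophin receptor, had folds of 3.49, 4.88, 2.69 and 3.39 in SETα replicates 1 and 2 and SETβ replicates 1 and 2. Its SETβ replicate 1 peak ranked at 92.1% of the list, so it was near the threshold there. Zfp511 had folds of 2.99, 4.55, 3.54 and 3.15 in the same order, at an interval shared with Tubgcp2. Of the 15 genes 5 were clustered, beside 86 of the 180 members, and among these 5 were Zfp579, Zfp560 and Zfp114.

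Only 12 Zfp genes had a peak in an overexpression library (6.67%, beside 3.68% of all genes), and 11 of them had one in an addback library too. Of all genes, 708 had an overexpression peak, 10103 no addback peak and 9944 no peak in any of the 8 libraries. Most of the 708 thus also had an addback peak, so such an overlap is not particular to Zfp genes. A gene in both need not have both peaks at 1 site. Zfp85 had its addback peak at 67743587 to 67743786 and its overexpression peak at 67755286 to 67755502 on chromosome 13. Zfp384 and Zfp248 had a peak in both SETα overexpression libraries, which 0.879% of all genes also did. Folds at Zfp248 were 2.53 and 2.67. Zfp9, next to Zfp248 on chromosome 6, had a peak in SETα overexpression replicate 2. Chromosome 6 held 70.4% and 63.9% of the peaks of the SETα overexpression libraries, and between 5.97% and 9.20% of those of the other 6 libraries; the part of this in the 3 genes' peaks was not tested. Zfp273 and Zfp74 had a peak in SETα overexpression replicate 2 and in no other overexpression library. Both also had one in SETα addback replicate 1, with folds of 2.74 and 3.16. With SETβ overexpression, Zfp87, Zfp85, Zfp97, Zfp334, Zfp36, Zfp27 and Zfp383 had a peak in replicate 2 and none in replicate 1. The highest fold of any Zfp gene in an overexpression library was 3.32, at Zfp85. Zfp27 and Zfp383 shared a single peak, of rank 2788 among 2869, and were named after their values were seen. Zfp334 had no addback peak. Zfp36, the CCCH mRNA decay factor, had folds of 3.73 and 4.88 in the SETα addback libraries and 2.81 in SETβ overexpression replicate 2. The summits of these peaks lay 2955, 3655 and 3196 bp from its start, outside the gene beyond its far end.

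The 86 clustered genes formed 23 clusters, 12 of them with at least 3 genes and 11 pairs. Chromosome 7 held 54 Zfp genes, 38 of them clustered. With SETα addback, 43 of 86 clustered genes (50.0%, 39.7 to 60.3%) and 41 of 94 single genes (43.6%, 34.0 to 53.7%) had a peak in replicate 1, and 37 (43.0%) and 37 (39.4%) in replicate 2. With SETβ addback the order was the other way, with 7 clustered (8.14%, 4.00 to 15.9%) and 13 single genes (13.8%, 8.26 to 22.2%) in replicate 1 and 18 (20.9%) and 27 (28.7%) in replicate 2. In each library the counting intervals of clustered and single genes overlapped. The clustered share minus the single share was 5.02 ± 1.92 points (SD, n = 2) in SETα addback and −6.74 ± 1.49 points in SETβ addback, a difference of 11.8 points. With any numbered Zfp gene counted as a neighbour, a rule chosen after seeing the data, the SETα addback values were 3.17 and −4.37 points, so the order turned in replicate 2. In cells that kept SET the difference under the first rule was 1.84 ± 2.47 points with SETα and 0.73 ± 1.03 points with SETβ (SD, n = 2 each). Averaged over both backgrounds the isoforms differed by 6.44 points, beside a spread between replicates of 1.81 points (exact permutation test, p = 0.111). Within SET KO cells alone the exact permutation test gave p = 0.333, the smallest that 4 libraries allow. Addback and overexpression differed by −2.15 points (exact permutation test over the 8 libraries, p = 0.444).

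In the SETα addback libraries the order of clustered and single genes moved with the number of strongest peaks kept. Among the 2500 strongest peaks of SETα addback replicate 1, 6.98% of clustered and 12.8% of single genes had a peak. At 10000 peaks the shares were 27.9% and 28.7%, and at 12500 peaks 34.9% and 30.9%, so clustered genes passed single genes only among the weaker peaks. In SETα addback replicate 2 the same crossing lay between 8000 peaks (26.7% and 27.7%) and 10000 peaks (32.6% and 30.9%). With 2500 peaks the SETβ addback shares were 8.14% and 13.8% in replicate 1 and 11.6% and 13.8% in replicate 2. In SETβ addback replicate 2 the clustered share stayed below the single share as more peaks were kept, with 17.4% and 18.1% at 4000 peaks, 19.8% and 24.5% at 8000 and 20.9% and 28.7% at 9768. With each addback library cut to 2518 peaks, the clustered share lay below the single share in all 4, with differences of −5.79 and −3.07 points for SETα and −5.69 and −2.20 points for SETβ. The isoform difference over both backgrounds was then −0.80 points.

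**Figure D3:**
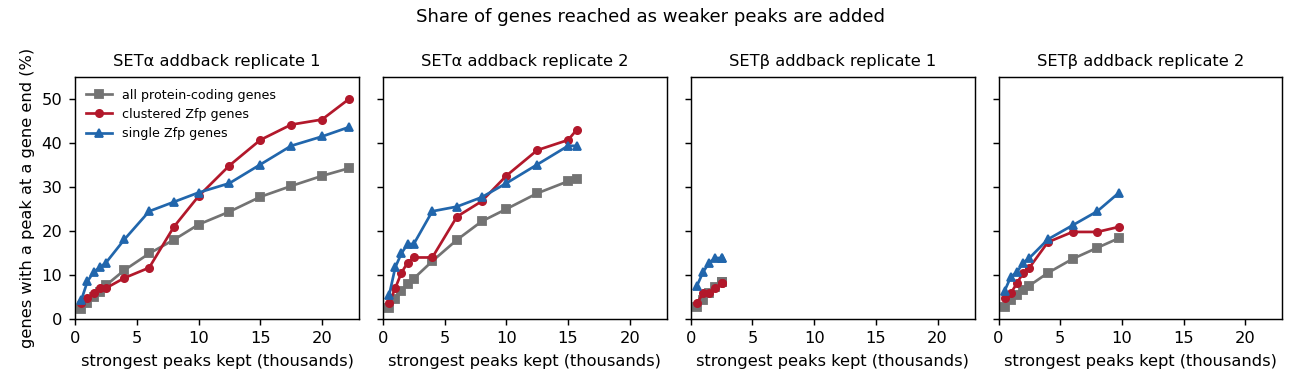
Percent of genes with a peak within 1 kb of a gene end (vertical axis) against the number of strongest peaks kept (horizontal axis, labelled in units of 1000), for the 4 addback libraries. Single Zfp genes (triangles) lie above clustered ones (circles) at 2500 peaks in each panel, and the lines cross between 8000 and 12500 peaks in both SETα panels. They do not cross in the SETβ panels, whose lists hold 2518 and 9768 peaks.

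Clusters differed among themselves. The largest held 13 genes, from Zfp84 to Zfp146 on chromosome 7 (29768552 to 30169775), and every one had a peak in at least 1 addback library and none in all 4. It counted 9 and 8 genes with SETα and 1 and 3 with SETβ. Zfp568, a KRAB gene of this cluster that represses a placental Igf2 transcript, had folds of 3.24 and 4.55 with SETα addback and 3.05 in SETβ addback replicate 2. In the 10-gene cluster from Zfp180 to Zfp94, also on chromosome 7 (24081877 to 24316698), 7 genes had no addback peak, Zfp111 and Zfp235 among them. This cluster counted 3 and 2 with SETα and 1 and 2 with SETβ. In its midst Zfp114 had a peak in all 4 addback libraries. A cluster of 9 genes on chromosome 13 (67194506 to 67526231), from Zfp455 to Zfp87, had 6 genes without an addback peak and counted 3 and 1 with SETα and 0 and 1 with SETβ.

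In the smaller clusters the counts rest on even fewer genes and were not tested either. The cluster of Zfp579, Zfp524 and Zfp580 on chromosome 7 (4992852 to 5053723) had peaks at all 3 genes in both SETα addback libraries and SETβ replicate 2, and at 2 of them in SETβ replicate 1. The 4 genes from Zfp560 to Zfp266 on chromosome 9 (20345136 to 20521419) counted 3 and 3 with SETα and 1 and 1 with SETβ, with Zfp560 in all 4. The 5 genes from Zfp329 to Zfp446 on chromosome 7 counted 3, 2, 1 and 1, with Zfp110 in all 4. On chromosome 16 Zfp263, Zfp174 and Zfp597 counted 3, 2, 1 and 1. The clusters from Zfp398 to Zfp212 on chromosome 6 and from Zfp583 to Zfp28 on chromosome 7 held 3 genes each. The first counted 1 and 3 with SETα and 0 and 2 with SETβ, and the second 2 and 2 with SETα and 0 with SETβ in both replicates. Those from Zfp65 to Zfp273 on chromosome 13 and from Zfp54 to Zfp52 on chromosome 17 held 4 genes each, and no SETβ addback peak. The 3 genes from Zfp397 to Zfp24 on chromosome 18 had a SETα peak at 1 gene in each replicate and no SETβ peak.

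**Figure D4:**
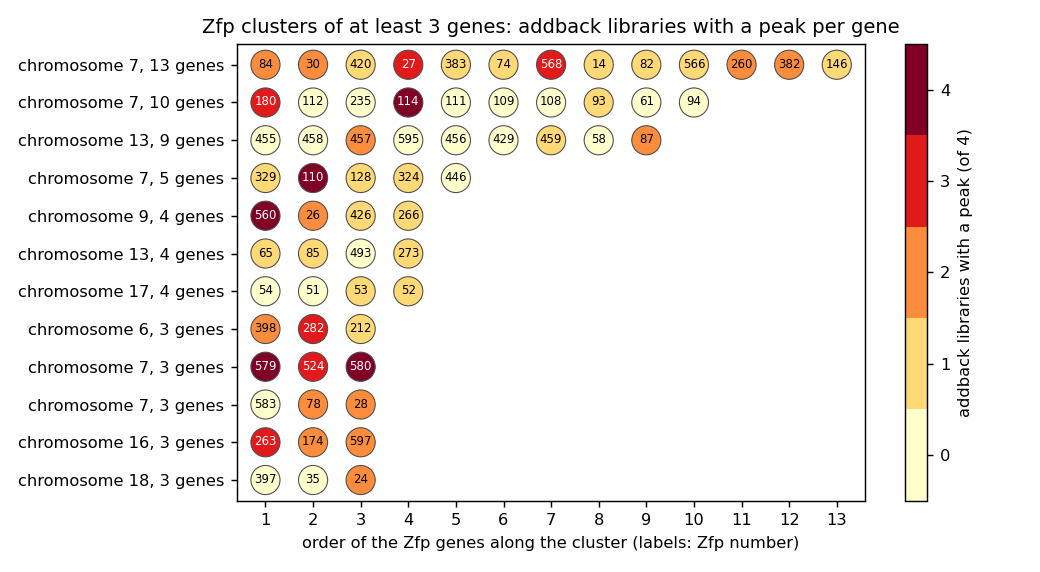
Each row is a cluster of at least 3 Zfp genes and each circle a gene in chromosomal order (horizontal axis), with its Zfp number written in it and its colour giving the number of addback libraries (0 to 4) with a peak. The 13-gene cluster holds no gene at 0 and none at 4, while the 10-gene cluster holds 7 at 0 beside Zfp114 at 4.

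Among 29 members with a known role in development, stem cells or RNA control, 7 had a peak in no addback library, 10 in 1, 4 in 2, 5 in 3 and 3 in all 4. These are 24.1%, 34.5%, 13.8%, 17.2% and 10.3% of the 29, beside 33.9%, 32.2%, 18.3%, 7.22% and 8.33% of the 180 members and 52.5%, 19.6%, 15.5%, 7.23% and 5.15% of all genes. With so few genes no departure from the members can be read from these counts. The 3 were Zfp410, Zfp335 and Zfp110. Zfp57, the KRAB protein that protects methylation at imprinted genes, had no addback peak, nor had Zfp521, a regulator of neural differentiation, nor Zfp217, Zfp91, Zfp369, Zfp536 or the meiotic gene Zfp541. Zfp281, a regulator of the exit from pluripotency, had folds of 3.98 in SETα addback replicate 1 and 2.80 in SETβ addback replicate 2. Zfp462, which restrains endoderm genes in embryonic stem cells, had a fold of 3.66 in SETα addback replicate 2 alone. Zfp296 had a fold of 2.74 in SETα addback replicate 1 alone, at rank 83.7% of the list.

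The promoter activator Zfp143 had folds of 2.49 and 3.90 with SETα addback and 3.17 in SETβ addback replicate 2. Zfp64, a C2H2 activator, had 3.50 and 5.64 with SETα and 4.52 in SETβ replicate 2. Both lacked a peak in SETβ replicate 1, the addback library with the fewest peaks. Zfp263 had folds of 3.24 in SETα replicate 1 and 4.42 and 3.39 with SETβ. Zfp326, a splicing factor, had 3.49 in SETα replicate 1 and 3.35 and 2.76 with SETβ. These last pair had peaks with SETβ in both replicates and with SETα in 1. Of the rest, Zfp148, a binder of GC-rich DNA, had a fold of 4.23 in SETα replicate 2 and 3.72 in SETβ replicate 1, and the ribosome collision sensor Zfp598 had a peak in SETβ replicate 2 alone.

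Members with more addback libraries had more CpG in the promoter. The median CpG count of the 300 bases was 10.5 for members with no addback peak, 14 with 1 library, 17 with 2, 17.5 with 3 and 19 with 4. For all protein-coding genes the medians were 4, 19, 23, 24 and 23. By these medians Zfp genes without a peak held more CpG than genes without one in general, and those with peaks less than genes with as many libraries in general. Over all members the median was 15, beside 13 for all genes, with 12 for clustered and 17 for single members. Among promoters with 5 to 14 CpG, 40.0% and 33.3% of the 60 members had a peak with SETα addback, beside 29.1% and 25.2% of all genes. With SETβ addback the shares in this range were 5.00% and 15.0%, beside 6.15% and 14.4%. At 15 to 24 CpG (54 members) the SETα shares were 57.4% and 48.1%, beside 51.6% and 50.2% of all genes, and at 25 or more CpG (20 members) they were 50% and 50%, beside 59.3% and 56.6%.  The SETβ shares were 18.5% and 33.3%, beside 13.6% and 28.4%, at 15 to 24 CpG and 20% and 35%, beside 15.7% and 33.0%, at 25 or more. Only 11 members had 0 to 4 CpG, of which 2 (18.2%) and 4 (36.4%) had a peak with SETα and 1 (9.09%) and 2 (18.2%) with SETβ. Of the 4662 genes in this range 5.60% and 4.80% had a peak with SETα and 0.794% and 2.72% with SETβ. With SETα, members thus stood above all genes at 0 to 4 and at 5 to 14 CpG, on both sides at 15 to 24 and below at 25 or more. Clustered members made up 40 of the 60 with 5 to 14 CpG.

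**Figure D5:**
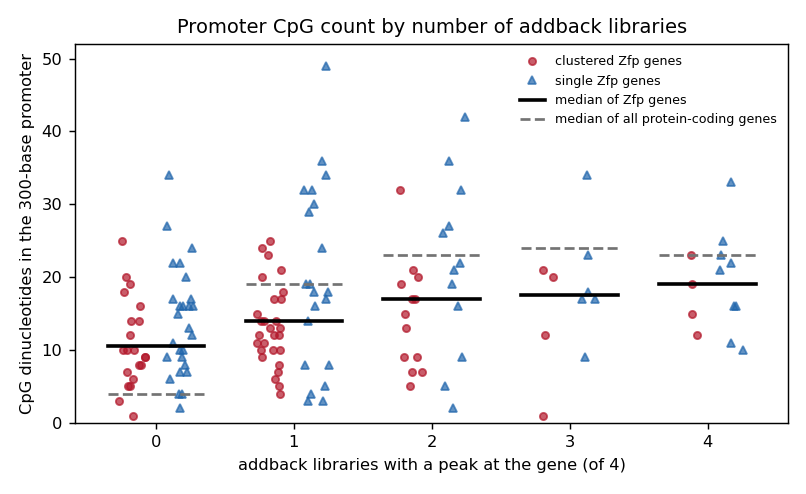
CpG dinucleotides in the 300-base promoter (vertical axis) against the number of addback libraries with a peak at the gene (horizontal axis); each point is a Zfp gene with a RefSeq promoter (145 in all), circles clustered and triangles single. Solid bars are the medians of the Zfp genes (10.5 to 19) and dashed bars those of all protein-coding genes (4 to 24).

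Of 7 motifs searched on both strands of these promoters, the ETS motif CCGGAAGT differed most between members with many and with no addback peaks. It was found at 8 of 23 members (34.8%) with a peak in 3 or 4 addback libraries, 5 of 74 (6.76%) with 1 or 2 and 5 of 48 (10.4%) with none. Among all genes the shares were 14.9%, 6.12% and 2.29%, and 5.21% of all promoters held it. Zfp408 and Zfp433 carry this match in the printed sequences, and Zfp560 does not. The ZFP143 motif ACTACAA was found in 1 of 23, 3 of 74 and 7 of 48 of the same groups (4.35%, 4.05% and 14.6%), and Zfp111 is a carrier without a peak. Among all genes the shares ran the other way at the ends, with 5.49%, 3.32% and 3.67%. Over all groups 7.59% of member promoters and 3.78% of all promoters held it. YY1 (AAGATGGC; 3.05% of all promoters), NRF1 (TGCGCATGC; 2.03%) and the USF E-box (CACGTGAC; 2.80%) were found in 9, 7 and 3 of the 145 member promoters. All 3 were at 0 in the 23 members with 3 or 4 libraries, which allows a share of up to 13% and so does not set them apart from all genes of that group (4.35%, 3.42% and 3.57%). CRE (TGACGTCA, 2.24% of all promoters) was in 8 and SP (GGGGCGGGG, 15.3%) in 18 of 145 members. Of those 23 members 2 and 4 held them (8.70% and 17.4%), beside 2.85% and 23.7% of all genes of that group, and counts this small do not set the members apart. No motif's letters contain those of another, and a match is a description and not a binding site.

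The partners through which KRAB zinc finger proteins act were counted from a fixed list of 30 names, 27 of them on the analysed chromosomes. A peak in at least 1 addback library was found at 22 of 27 (81.5%), beside 47.5% of all protein-coding genes. In the SETα addback libraries 21 (77.8%) and 16 (59.3%) had a peak, beside 34.3% and 31.8% of all genes. In the SETβ addback libraries 3 (11.1%) and 9 (33.3%) did, beside 8.41% and 18.4%, so that replicate 1 was near the share of all genes. Trim28, the shared corepressor, and Uhrf1, a reader of hemimethylated DNA, had a peak in all 4. Setdb1, the H3K9 methyltransferase recruited by TRIM28, had a peak in both SETα libraries and SETβ replicate 2. None of the 27 was in an addback IDR list, which allows a share of up to 11.1% and so does not set them apart from all genes (3.22%) or from Zfp genes (7.22%). Chd4, on chromosome 6, was the only one with an overexpression peak, in both SETα libraries.

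Related families gave shares on both sides of the Zfp shares. The 145 genes named Zfp with a number above 600 had a peak at 37.9% and 37.2% in the SETα and at 12.4% and 22.8% in the SETβ addback libraries, each below the share of the 180 members except in SETβ addback replicate 1. At least 1 addback library listed 56.6% of them, beside 66.1% of the members. The 26 Zfp names with a trailing letter had 42.3% and 46.2% with SETα and 3.85% and 30.8% with SETβ, above the members in replicate 2 of each isoform and below them in replicate 1. The 39 Zbtb genes, which pair zinc fingers with a BTB domain, stood higher, with 74.4% and 61.5% for SETα and 17.9% and 41.0% for SETβ. Zscan and Zkscan genes (25) had 40.0% and 32.0% with SETα and 16.0% and 32.0% with SETβ. Over all protein-coding genes the shares were 34.3% and 31.8% with SETα and 8.41% and 18.4% with SETβ. Each family lay above these in all 4 addback libraries, except the names with a trailing letter in SETβ replicate 1. Zscan and Zkscan genes were close to all genes in SETα replicate 2. A share above that of all genes is thus not particular to the 180 members. These differences between families were not tested.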

How the data were processed

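HA ChIP-seq peaks of 8 libraries (2 in each of 4 groups) and 4 IDR lists were analysed. Per the submitters' processing notes, Bowtie2, MACS2 and deepTools were used with GRCm38/mm10; versions, roles and the control library are not given in the sources used here. The authors called peaks in each library. The deposited score is proportional to −log10 p in library lists and is a scaled IDR in IDR lists. Fold enrichment, as deposited, is a linear ratio to local background, and −log10 p and −log10 q were deposited as the peak caller gave them. For IDR lists the deposited −log10 p is that of the weaker replicate.

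Members, gene lists, tests and alternatives were chosen with earlier results of these data known. Genes came from the RefSeq table of GRCm38.p6, chromosomes 8 and 11 not analysed here, and promoters from RefSeq. Peaks were ranked by −log10 p and then fold. A further gene family member is not reported here. Mitochondrial peaks (3 in 1 library) were left out. Shares per library were tested by exact permutation of labels, two-sided and within strata (36 arrangements, so p cannot go below 0.0556); the spread between replicates is the pooled SD over groups. Genes named are the members in addback IDR lists, up to 10 in overexpression libraries, clusters of at least 3 genes, a role list of 31 names and the genes at the rule's edges. A planned search of protein sequences was not run, because proteins were not used here. Alternatives were other windows, RefSeq starts in place of gene ends, summits only, −log10 q of at least 5, equal numbers of peaks, other cluster distances, leaving out chromosome 6 and leaving out each replicate. Overlap code was tested on 8 simulated lists, where 200 of 200 planted genes were found in each, with 0 wrong calls over 19235 genes. Python 3.11.15, numpy 2.4.6, pandas 2.3.3, scipy 1.17.1 and matplotlib 3.10.9 were used.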

Additional observations from a re-analysis of the deposited data

Results flagged for a closer look

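The share of clustered Zfp genes with a peak minus that of single ones had opposite signs in pairs of groups. It was above 0 in both SETα addback libraries (6.38 and 3.66 points) and below 0 in both SETβ addback libraries (−5.69 and −7.79 points), a difference of 11.8 points. The isoform difference over both backgrounds had p = 0.111 (exact permutation test). It was also above 0 in both SETα overexpression libraries (0.10 and 3.59 points), so SETβ addback and SETα overexpression differed by −8.58 points. The 0.10 points come from 1 of 86 clustered and 1 of 94 single genes, Zfp248 and Zfp384, both on chromosome 6, so that sign rests on equal counts. Without chromosome 6 the SETα overexpression values were 0 and 2.47 points. That difference, between groups that share neither isoform nor background, was not tested. The number of peaks moved with the first difference: both SETα addback lists were longer than both SETβ addback lists.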

How the results depend on the processing

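The isoform difference in clustered minus single share was 6.44 points. It turned to −0.72 points with peaks of −log10 q of at least 5, to −1.09 points with the 1343 strongest peaks of each library, and to −0.80 points with as many of the strongest peaks as the smallest library of the same background held, the last chosen after seeing the data; these settings keep fewer, stronger peaks. It kept its sign under 17 other settings, though in SETα addback replicate 2 the clustered share was below the single one under 3 of them. These were a 2.5 kb window (−1.16 points), clusters within 200 kb (−1.44 points) and clusters counting any Zfp gene (−4.37 points, also chosen after seeing the data). In SETα addback replicate 1 the clustered share was below with the 1 kb around any RefSeq start in place of the gene ends (−3.62 points). A peak in both libraries in place of the IDR list gave 44 Zfp genes in SETα addback, 18 in SETβ addback and 2 in SETα overexpression, against 12, 9 and 0. Leaving out each library in turn gave isoform differences of 9.44 to 16.4 points (share), 1.93 to 3.89 (excess) and 5.57 to 7.31 (clustered minus single), and background differences of 25.6 to 32.5, 6.09 to 8.06 and −3.02 to −1.27 points. At −log10 q of at least 5 the isoform difference in share fell from 12.9 to 1.25 points. The background differences fell there from 29.0 to 6.81 points (share) and from 7.08 to 3.39 points (excess). The share and excess differences kept their direction in each of 17 settings, but the isoform difference in excess fell from 2.91 to 0.63 points with a 250 bp window (exact permutation p = 0.833) and to 0.46 points at −log10 q of at least 5 (exact permutation p = 1), where the SETα and SETβ addback libraries overlapped.

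Replicate numbers did not pair the samples: the correlations of deviations between groups were −0.0018 to 0.0281. With a replicate block the differences stay as they are by construction (12.9, 29.0, 2.91, 7.08, 6.44 and −2.15 points) and the smallest exact permutation p is 0.125, so 0 of 6 differences had a p under 0.05 with or without it. No value stands for depth: read totals were not used here.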
